A study of Rattus norvegicus with 24 samples.

Results

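The 10 genes described here encode the voltage-gated sodium channel subunits followed in these rat dorsal root ganglion (DRG) neurons. They were taken by name from the 32881 genes shared by the deposited UMI count tables, and all 10 were found: the pore-forming subunits Scn1a (Nav1.1), Scn3a (Nav1.3), Scn8a (Nav1.6), Scn9a (Nav1.7), Scn10a (Nav1.8) and Scn11a (Nav1.9), the related channel Scn7a (Nax), and the accessory beta subunits Scn2b, Scn3b and Scn4b. Scn1a, Scn3a, Scn7a and Scn9a lie on rat chromosome 3, Scn8a on chromosome 7, and Scn10a, Scn11a and the 3 beta subunit genes on chromosome 8. A unique molecular identifier (UMI) marks 1 captured RNA molecule at its end, so levels below are compared between cells or samples for 1 gene at a time and never between genes.

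Male Sprague-Dawley rats underwent spared nerve crush (SNC), in which the tibial and common peroneal branches of the sciatic nerve were crushed and the sural branch was left intact, or a sham operation in which the nerve was exposed and not crushed. Dye had been injected into the nerve branches beforehand, in sham rats too, and labelled neurons of the L4 and L5 DRGs were picked by hand for single-cell RNA sequencing 1, 3 or 7 days after SNC. The labelled neurons made up 16 DRG samples after joining the libraries S-2 and S-3, 4 sham, 4 at SNC 1 d, 3 at SNC 3 d and 5 at SNC 7 d, and 7 further sham libraries, labelled 0, 1, 3 or 7 days after the operation and called added sham here, were deposited without a description of dye. The cell names carry no dye colour, so neurons of crushed and spared branches could not be separated and each SNC value pools both.

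After quality control 1433 of 1464 cells were kept, 930 labelled and 503 added sham, with 4002564 to 40733436 UMIs per sample. The labelled sham neurons were not free of injury genes. Sprr1a, a small proline-rich protein gene known for its induction in axotomised neurons, stood at 100 CPM (counts scaled to a common total per cell or sample) or more in 45.1% ± 27.4 of the cells of a labelled sham sample (SD, n = 4), against 48.1% ± 10.7 at SNC 1 d (n = 4), 43.2% ± 7.12 at 3 d (n = 3) and 49.2% ± 17.0 at 7 d (n = 5), and in 0 of 503 added sham cells, which allows a share of up to 0.596% by counting error. The neuropeptide gene Gal averaged 1198 CPM in labelled sham and 7.36 CPM in added sham samples. Comparisons of SNC with labelled sham are therefore comparisons with neurons that already carried these transcripts. One labelled sham library, named Xin, held the fewest UMIs of all samples, the highest summed level of a satellite and Schwann cell marker list (2492 CPM, against 1113 to 1306 in the other 3) and 282 CPM of Sprr1a, and values without it stand beside the results it enters. Without Xin the share of Sprr1a cells in labelled sham was 33.7% ± 18.7 (n = 3) and Gal averaged 823 CPM.

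Sodium channels open on depolarisation and carry the upstroke of the action potential. In sensory ganglia the channels divide by sensitivity to tetrodotoxin: Nav1.1, Nav1.3, Nav1.6 and Nav1.7 are blocked by low concentrations, whereas Nav1.8 and Nav1.9, found mainly in nociceptors, are resistant. Nav1.7 amplifies small depolarisations, Nav1.8 carries most of the nociceptor spike, Nav1.9 gives a slow persistent current near rest, Nav1.6 clusters at nodes of Ranvier, and Nav1.3 is best known from embryonic neurons and from its return after axotomy, while beta subunits steer gating and surface delivery.

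Levels by neuron type were examined first. The 930 labelled neurons fell into 10 clusters, made without the Scn genes, and 9 were named from marker genes: PEP1-like, PEP2-like and PEP3-like (peptidergic), 2 NF-like (neurofilament-rich, large), 2 SST-like (somatostatin and Nppb), NP-like (non-peptidergic) and Trpm8-like (cold-sensing). A cluster of 43 cells that carried all 6 glial markers was left unnamed. The PEP1 and PEP2 marker lists include Gal, itself an injury gene. Because the clusters come from the same cells, the levels are descriptions without a test, given as mean CPM ± SD over those samples that held 3 or more cells of a cluster.

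The resistant channels Scn10a and Scn11a followed the nociceptor clusters. Scn10a was highest in NP-like neurons at 360 ± 128 CPM (n = 8) and in SST-like cluster 7 at 303 ± 50.2 CPM (n = 8), stood at 214 ± 44.2 CPM (n = 11) in PEP3-like neurons, and was lowest in NF-like cluster 3 at 7.70 CPM (n = 12). Scn11a had the same 3 leading clusters, at 458 ± 106, 397 ± 57.9 and 169 ± 37.3 CPM, and 7.26 CPM in NF-like cluster 3. NP-like neurons and SST-like cluster 7 did not differ beyond their spread in either gene, while the step from SST-like cluster 7 to PEP3-like neurons exceeded the larger of the 2 SDs in both. The PEP1-like and PEP2-like clusters, the largest with 185 cells each, held only 63.8 ± 26.6 and 87.4 ± 49.8 CPM of Scn10a, below all other named clusters except Trpm8-like and NF-like cluster 3.

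Scn1a and Scn8a marked the large neurons, and Scn4b was highest in them but less restricted. Scn1a was 271 ± 69.7 CPM in NF-like cluster 3 and 104 ± 61.6 CPM in NF-like cluster 4, a step beyond their spread, 43.9 ± 34.1 CPM in Trpm8-like neurons and at most 12.5 CPM elsewhere. Scn8a was 79.8 ± 30.97 and 49.6 ± 23.7 CPM in the NF-like clusters, which overlapped, and 15.3 CPM in the next cluster, NP-like. Scn4b, whose product is linked to the resurgent sodium current of fast-firing neurons, was 202 ± 25.1 and 188 ± 60.9 CPM in the NF-like clusters. It was 113 ± 33.9 CPM in SST-like neurons of both clusters together, 94.7 ± 84.5 CPM in NP-like and 92.4 ± 27.7 CPM in PEP2-like neurons. The lowest value was 17.3 ± 10.0 CPM in PEP3-like neurons. The 2 NF-like clusters thus separated by their resistant channel, since cluster 4 held 148 ± 71.0 CPM of Scn10a.

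The other members were less restricted. Scn9a varied least, from 314 ± 76.6 CPM in PEP1-like to 657 ± 109 CPM in SST-like cluster 7, a ratio of 2.09, and no neighbours in its order were further apart than their SD. Scn7a, a channel gated by extracellular sodium rather than by voltage, ranged from 55.5 CPM in PEP1-like neurons to 289 ± 82.4 CPM in NF-like cluster 3. Scn3b was highest in Trpm8-like neurons at 377 ± 143 CPM (n = 5), followed by SST-like cluster 5 at 238 ± 65.0 CPM. Scn3a, at low levels throughout, was highest in Trpm8-like neurons at 37.2 ± 15.2 CPM and lowest in PEP3-like neurons at 3.30 CPM, and Scn2b ran from 14.3 CPM in SST-like cluster 7 to 0.837 CPM in NF-like cluster 3.

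**Figure D1:**
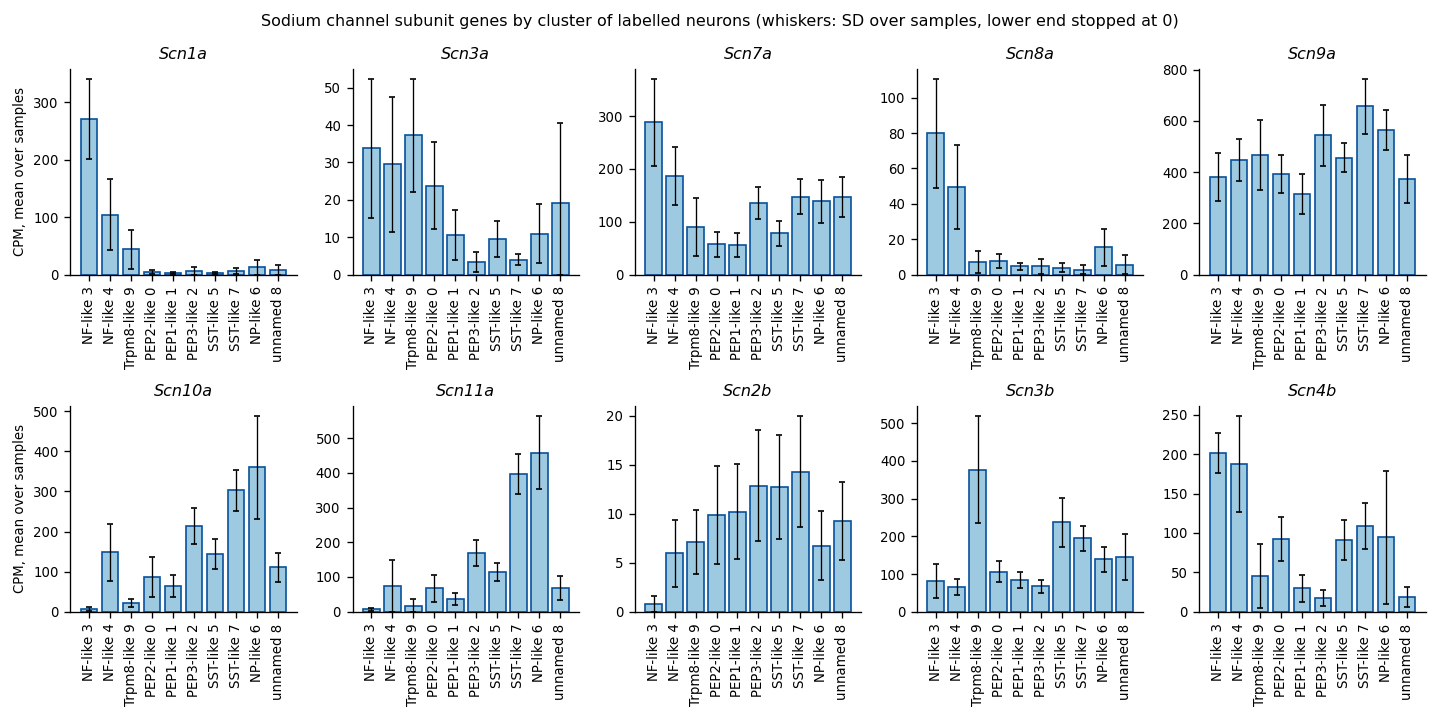
Mean level of each sodium channel gene in CPM (bars, linear axis from 0) in the 10 clusters of labelled neurons, whiskers showing the SD over the samples with enough cells. Scn1a, Scn8a and Scn4b are tallest in the 2 NF-like clusters, and Scn10a and Scn11a in NP-like neurons and SST-like cluster 7.

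The added sham neurons, clustered apart, gave 7 clusters, of which 3 were named, NF-like (97 cells), NP-like (76) and SST-like (28), and 4 with 136, 91, 58 and 17 cells were not. Scn1a was 275 ± 40.04 CPM (n = 5) in NF-like neurons, against 8.39 CPM in SST-like and 11.6 CPM in NP-like neurons. Scn10a and Scn11a were 635 ± 54.8 and 708 ± 34.2 CPM (n = 7) in NP-like neurons, and 75.9 ± 18.4 and 76.7 CPM in NF-like neurons. Both kinds of channel stood side by side in 2 of the unnamed clusters: the cluster of 17 cells held 187 ± 60.98 CPM of Scn1a, 356 ± 63.2 CPM of Scn10a and 529 ± 120 CPM of Scn11a (n = 4), and the cluster of 136 cells, which carried all 6 glial markers, 107 ± 13.2 CPM of Scn1a and 392 ± 52.0 CPM of Scn10a (n = 6). Scn4b was highest in the cluster of 17 cells at 421 CPM, and its highest and lowest cluster means differed by a ratio of only 2.86. It was 398 ± 60.7 CPM in NF-like, 320 ± 30.5 CPM in NP-like and 211 ± 75.4 CPM in SST-like neurons.

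Over 110 sums per sample and cluster of labelled neurons, members were also ordered by likeness of pattern (Pearson r of log2(CPM + 1), over 8443 genes with a mean of at least 10 CPM). Sums from 1 sample are not independent of each other, so these are descriptions. Scn10a was most like Scn11a (r = 0.88), then Nell1 (0.86) and Cd55 (0.84). The closest genes to Scn4b and Scn8a were Kcna1, a low-threshold potassium channel (0.88), and Adam23 (0.82), and Acsl6 was among the 3 closest to Scn1a (0.86). Scn9a was closest to Ppp1r1c (0.81), Scn7a to Galnt13 (0.80), Scn3a to Osbpl6 (0.74), Scn2b to Emp3 (0.69) and Scn3b to Tmsb15b2 (0.61). Among the members Scn1a and Scn8a followed next after the Scn10a and Scn11a pair (r = 0.75).

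The SNC comparison asked whether channel levels differed between operated and sham ganglia. Scn10a stood at 120, 187, 99.1 and 57.5 CPM in the 4 labelled sham samples, 156, 135, 137 and 174 CPM at SNC 1 d, 167, 145 and 127 CPM at 3 d and 101.7, 203, 64.4, 98.9 and 74.96 CPM at 7 d. The 4 groups overlapped. Scn11a was 130, 148, 132 and 39.2 CPM in sham, 156, 97.3, 97.3 and 108 CPM at 1 d, 152, 140 and 112 CPM at 3 d and 56.4, 175, 47.3, 75.1 and 62.4 CPM at 7 d. Here the sham library Xin lay below the other 3, and 4 of the 5 samples at 7 d lay below those 3 as well. By the paper's dates, sham Xin, 4 and 10 and SNC 7 d 8, 9 and S were reverse-transcribed in an earlier calendar year. All other labelled samples, every SNC 1 d and 3 d sample among them, came a year later, so group and year were partly mixed. Scn10a was 57.5 to 120 CPM in the earlier and 101.7 to 203 CPM in the later samples. The low Scn11a samples at 7 d were 8, 9 and S, but also 19-1.

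No member passed the test at any time. In edgeR fits over 14239 genes, with the 3 comparisons sharing the sham samples, 0 of 10 members and 0% of all genes had an adjusted p under 0.05 at 1 d, 3 d and 7 d. At an unadjusted p under 0.05 the count was 1 of 30 member tests, Scn3b at 1 d (log2 fold change −0.47 ± 0.21 SE, unadjusted p = 0.0371, adjusted p = 0.56), and DESeq2 called 0 members. Over all genes the unadjusted count was 1243, 594 and 476 of 14239 at 1, 3 and 7 d. Scn10a differed by 0.31 ± 0.31, 0.31 ± 0.34 and −0.14 ± 0.30 and Scn11a by −0.02 ± 0.37, 0.25 ± 0.40 and −0.48 ± 0.35 on the log2 scale at 1, 3 and 7 d. The precision was uneven, with SEs from 0.13 to 0.84: the 95% interval for Scn9a at 7 d was −0.44 to 0.08, whereas that for Scn1a was −1.26 to 1.66, so changes of that size in Scn1a were not detectable. The median over the members was −0.04, 0.16 and −0.07, against medians within 0.01 of 0 over all genes. Without the library Xin the count stayed 0.

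**Figure D2:**
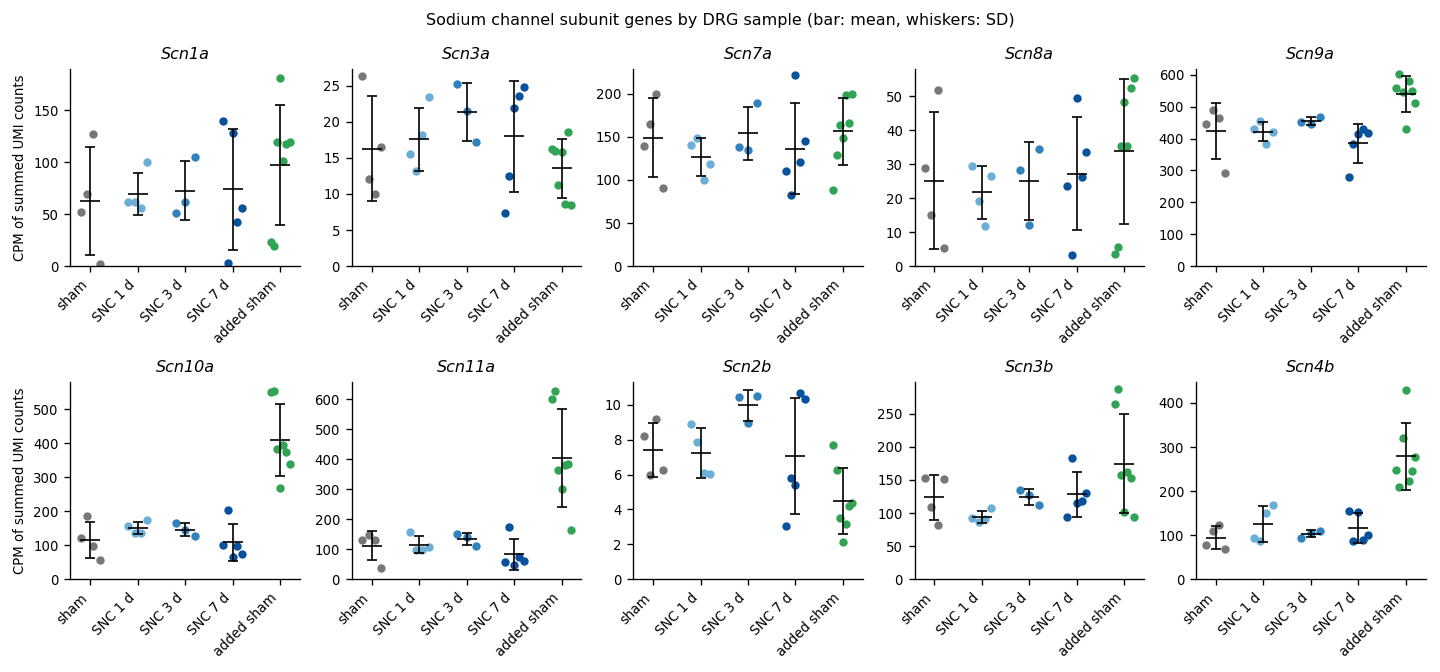
CPM of summed UMI counts of each sodium channel gene (linear axes) by DRG sample (points) in labelled sham, SNC 1 d, SNC 3 d, SNC 7 d and added sham, with the group mean (bar) and SD (whiskers). The labelled groups overlap for every gene, and the added sham points lie above all labelled sham points for Scn10a, Scn11a and Scn4b.

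Within neuron classes the same comparison could be made for NF-like, PEP1-like, PEP2-like and SST-like neurons, and NP-like, PEP3-like and Trpm8-like neurons were present in too few samples of some groups. Over 12 comparisons and 117 member tests edgeR called 0 (lowest adjusted p = 0.38), 10 fell under 0.05 before adjustment, and with DESeq2 the count was 0 as well. Over all genes, from 298 of 13010 (NF-like, 7 d) to 1119 of 10490 (PEP1-like, 1 d) fell under 0.05 before adjustment in a comparison. The share of all genes called was 0% in 10 comparisons and 0.00953% in PEP1-like neurons at 1 d and 3 d. Scn10a in PEP2-like neurons is singled out here after its values were seen. It stood at 38.1, 6.68, 63.1 and 36.0 CPM in sham, 134, 83.5, 87.1 and 73.1 CPM at 1 d, 191, 87.8 and 113 CPM at 3 d and 188, 74.6, 95, 64.5 and 64.1 CPM at 7 d. All 12 SNC samples lay above the highest sham sample, the lowest of them narrowly (64.1 against 63.1 CPM), and the log2 fold changes were 1.32 ± 0.40, 1.74 ± 0.42 and 1.29 ± 0.39 (edgeR adjusted p = 0.48, 0.45 and 0.99). How many of all genes separate in this way was not counted. Kept in a fit without the filter on low counts, Scn10a passed at all 3 times (adjusted p = 2.7e-05, 1.2e-08 and 7.8e-05) and Scn11a at 1 d and 3 d (0.0090 and 0.034), where 0.687%, 0.656% and 0.289% of all 19364 genes passed at 1, 3 and 7 d, and the sham values rested on 7 to 115 Scn10a UMIs per sample. Without the sham library Xin, with the filter, the fold changes were 1.31, 1.73 and 1.26 (edgeR adjusted p = 0.85, 0.59 and 0.84). In PEP1-like neurons Scn10a was 36.7 ± 26.4 CPM in sham (n = 4) and 79.5 ± 7.78, 74.9 ± 21.3 and 66.3 ± 27.9 CPM at 1 d, 3 d and 7 d, and without that filter it passed at 1 d (0.89, edgeR adjusted p = 0.049), where 0.973% of 19734 genes did. The Xin value there rested on 4 cells and 2 UMIs, and without Xin, with the filter, the change at 1 d was 0.67 (edgeR adjusted p = 0.50).

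The relation to Sprr1a was examined inside each sample, so that the cells compared shared a sample. The labels do not say whether a sample came from a single rat, and sample S was joined from separate libraries. Neurons with at least 100 CPM of Sprr1a (high) were compared with the rest (low) in the 12 SNC samples, 335 against 380 cells, with the sample as a block. Of 10 members 5 were called, 4 lower and 1 higher in Sprr1a-high neurons, where 27.2% of 12110 genes were called (13.9% lower). The median over the members was −0.51 on the log2 scale and −0.01 over all genes.

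Scn11a and Scn10a differed most. Scn11a ranged from 13.0 to 94.0 CPM (median 46.7) in the Sprr1a-high and from 60.8 to 266 CPM in the Sprr1a-low neurons, with means of 50.1 ± 24.3 and 160 ± 59.0 CPM. It was lower in the Sprr1a-high neurons of 12 of 12 samples (log2 fold change −1.71 ± 0.17, edgeR adjusted p = 2.6e-06). Scn10a ranged from 28.8 to 148 CPM (median 77.7) in high and from 105 to 283 CPM in low neurons, with means of 81.5 ± 35.3 and 182 ± 53.2 CPM, and was lower in 12 of 12 samples (−1.20 ± 0.15, adjusted p = 1.7e-05).

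Scn9a, at 348 ± 37.0 against 481 ± 71.3 CPM, was lower by a smaller factor, also in 12 of 12 samples (−0.42 ± 0.06, edgeR adjusted p = 8.3e-05). Scn7a, at 105 ± 48.0 against 167 ± 42.8 CPM, was lower in 10 of 12 (−0.70 ± 0.17, adjusted p = 0.0049). Scn3a alone among the members called went the other way: it was 23.6 ± 6.88 CPM in Sprr1a-high and 14.3 ± 5.88 CPM in Sprr1a-low neurons, higher in 10 of 12 samples (0.80 ± 0.17, adjusted p = 0.0022). The fits for Scn1a (−0.71 ± 0.31, adjusted p = 0.10), Scn8a (−0.61 ± 0.24, 0.067), Scn3b (−0.23 ± 0.09, 0.073), Scn2b (−0.26 ± 0.20, 0.36) and Scn4b (−0.19 ± 0.11, 0.21) did not pass. With cells thinned to equal depth, which also set the Sprr1a classes anew from the thinned counts, Scn1a passed, at a larger difference (−1.12, edgeR adjusted p = 3.9e-05), as did Scn3b (0.045), and DESeq2 called Scn8a (0.033). With the limit at 500 CPM Scn3a (0.11, edgeR adjusted p = 0.87), Scn9a (−0.21, 0.14) and Scn11a (−0.86, 0.053) no longer passed. Median depth was 235008 UMIs in high and 256381 in low cells, and the glial marker list summed to 1342 ± 265 and 1172 ± 339 CPM, higher in the Sprr1a-high cells of 9 of 12 samples. Its part in the result was not tested. A fit without the cluster of glial markers again called 5 members, where 26.0% of 12051 genes were called. In the other clusters of labelled neurons the list still averaged 837 to 1623 CPM, so that fit cannot test its part.

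**Figure D3:**
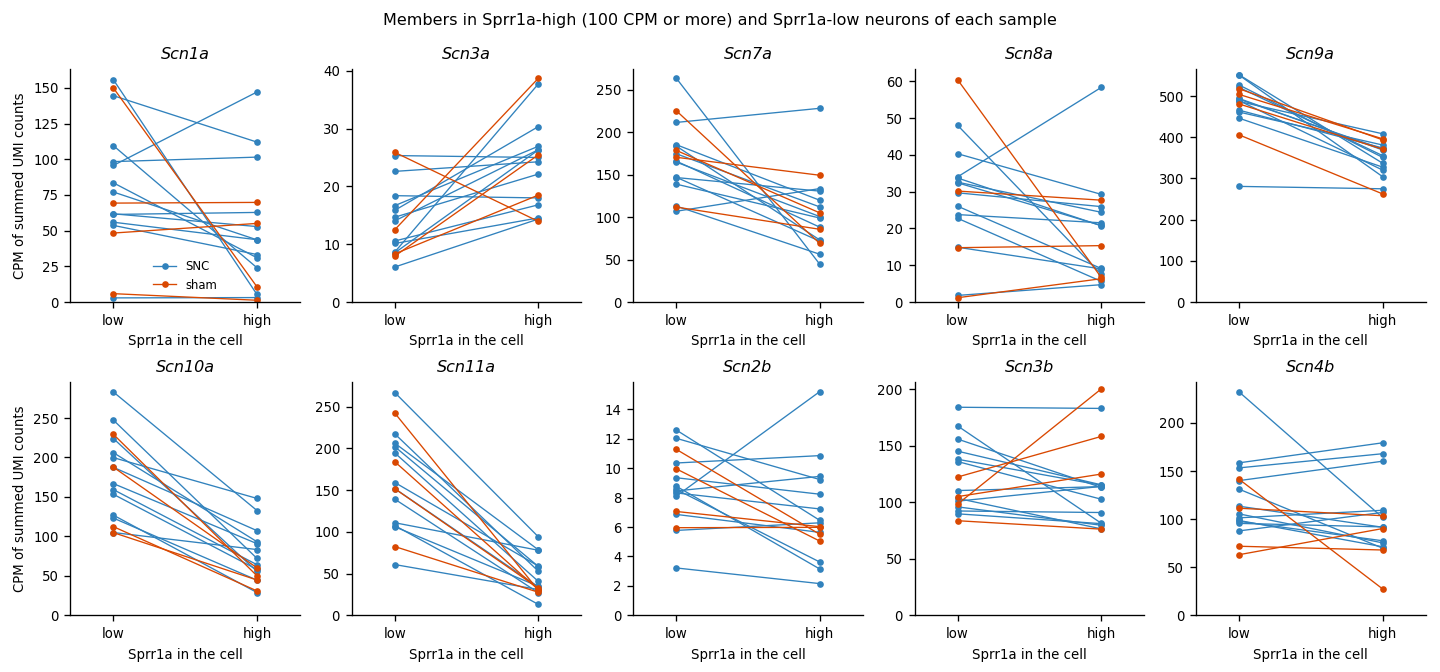
CPM of summed UMI counts (linear axes) in the Sprr1a-low and Sprr1a-high neurons (at least 100 CPM of Sprr1a) of each sample, 1 line per sample, for SNC (blue) and sham (red). Lines fall in every sample for Scn9a, Scn10a and Scn11a and climb in 10 of 12 SNC samples for Scn3a.

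The promoters of the members that differed most are shown because Scn10a and Scn11a were low together in Sprr1a-high neurons and Scn3a was high. Each is the 250 bases before the RefSeq start on GRCr8, a build other than the one the counts were made on, read 5′ to 3′ on the gene's strand (minus for all 3): Scn10a at chr8:128340299-128340548, Scn11a at chr8:128444719-128444968 and Scn3a at chr3:70666199-70666448. Capitals mark matches to TGANTCA, a loose form of the AP-1 motif that allows any base at N, or to the RUNX motif TGTGGT. AP-1 sites are bound by Jun and Fos family factors and are close to the site of Atf3. Whether any factor binds the marked stretches was not tested.
Scn10a: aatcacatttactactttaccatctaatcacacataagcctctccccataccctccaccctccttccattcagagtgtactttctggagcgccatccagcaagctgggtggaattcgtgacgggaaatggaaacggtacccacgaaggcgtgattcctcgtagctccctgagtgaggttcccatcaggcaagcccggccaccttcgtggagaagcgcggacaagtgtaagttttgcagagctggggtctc
Scn11a: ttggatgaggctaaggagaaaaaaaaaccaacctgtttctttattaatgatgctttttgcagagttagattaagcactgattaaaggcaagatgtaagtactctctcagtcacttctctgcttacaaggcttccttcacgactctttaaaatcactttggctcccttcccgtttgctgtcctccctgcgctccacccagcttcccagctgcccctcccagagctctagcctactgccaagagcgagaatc
Scn3a: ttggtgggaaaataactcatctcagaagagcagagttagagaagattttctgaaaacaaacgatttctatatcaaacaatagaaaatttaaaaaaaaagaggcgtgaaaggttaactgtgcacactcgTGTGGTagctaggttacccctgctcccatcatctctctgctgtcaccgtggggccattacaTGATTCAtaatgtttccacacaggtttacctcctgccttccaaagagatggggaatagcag
Searched on both strands, Scn3a held 1 TGANTCA match, which reads TGATTCA, at −61 to −55 and 1 RUNX match at −122 to −117 from the start. Scn10a and Scn11a held neither. Of 33469 rat promoters of the same length, 6.34% held TGANTCA, 14.5% TGTGGT and 1.59% the CRE motif TGACGTCA, which no member held. A RUNX match was also present in Scn2b, and 8 of the 10 members had a promoter to search.

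Sprr1a-high cells were unevenly spread over neuron types. They made up 73.0% of PEP1-like (135 of 185) and 70.8% of PEP2-like cells (131 of 185), 36.3% and 38.1% of the NF-like clusters 3 and 4, 51.4% of SST-like cluster 5 and 51.7% of Trpm8-like cells. In PEP3-like, NP-like and SST-like cluster 7 cells, the clusters with the most Scn10a and Scn11a, they made up 4.31%, 4.41% and 1.75%. Neuron type and Sprr1a level therefore moved together in the comparison over all neurons, and it was repeated within classes.

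Within classes fewer members passed. In SST-like neurons (4 samples, 18 against 23 cells) 4 of 7 members tested were called where 10.2% of genes were, all lower in Sprr1a-high cells: Scn7a (−1.57), Scn9a (−0.66), Scn10a (−1.13) and Scn11a (−1.58). Of the cells tested, 17 of the 18 high ones were of cluster 5 and 18 of the 23 low ones of cluster 7. Summed over all labelled cells of cluster 5, sham included and with no test, 37 high cells held 112 CPM of Scn10a, 87.6 of Scn11a, 409 of Scn9a and 58.4 of Scn7a, and 35 low cells held 219, 156, 511 and 101 CPM.

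In PEP2-like neurons (6 samples, 78 against 34 cells, 1.07% of genes called) Scn10a was lower, at 94.2 ± 36.7 against 149 ± 78.0 CPM, in 5 of 6 samples (−0.72 ± 0.16, edgeR adjusted p = 0.019), and the high cells were deeper (median 189254 against 73020 UMIs). That call was lost in 3 of 6 fits that left out a sample (14, 15 or S, adjusted p = 0.10, 0.12 and 0.058) and without the block (adjusted p = 0.31). In PEP1-like neurons (7 samples, 96 against 30 cells, 0.214% called) no member of 8 passed in edgeR, and with DESeq2 the count was 0 as well. Before adjustment 2 members fell under 0.05, beside 551 of all 8887 genes. Scn10a was 59.0 ± 25.1 against 88.7 ± 28.7 CPM there, lower in 6 of 7 samples, and passed only without sample 14 (−0.96, adjusted p = 0.016) or without the low-count filter (0.032).

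In NF-like neurons (9 samples, 50 against 67 cells, 4.46% called) the members called were the nodal channel Scn8a, at 49.7 ± 25.6 against 83.3 ± 20.2 CPM (−0.86 ± 0.21, edgeR adjusted p = 0.030), and Scn9a, at 360 ± 41.3 against 479 ± 78.1 CPM (−0.42 ± 0.11, adjusted p = 0.037). Each was lost in 5 of 9 fits that left out a sample, and with the limit at 20 CPM (adjusted p = 0.24 and 0.87). Scn8a was also lost without the block (edgeR adjusted p = 0.12), and Scn9a with thinned cells (−0.38, 0.15). Scn1a was lower in 9 of 9 samples, 140 ± 61.1 against 230 ± 53.0 CPM, without passing (−0.77, adjusted p = 0.15), and passed without sample 17-3 (0.016), with the limit at 20 CPM (0.025), with cells thinned to equal depth (0.0097) and without the low-count filter (2.4e-11). The high cells were again the deeper ones (median 591605 against 377978 UMIs). Within NF-like cluster 3 or 4 alone, with 5 and 3 samples and 0.643% and 1.07% of genes called, edgeR called 0 members. Before adjustment 4 members in each fell under 0.05, beside 1134 of 10257 and 1517 of 9711 genes. DESeq2 was not run on these clusters.

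**Figure D4:**
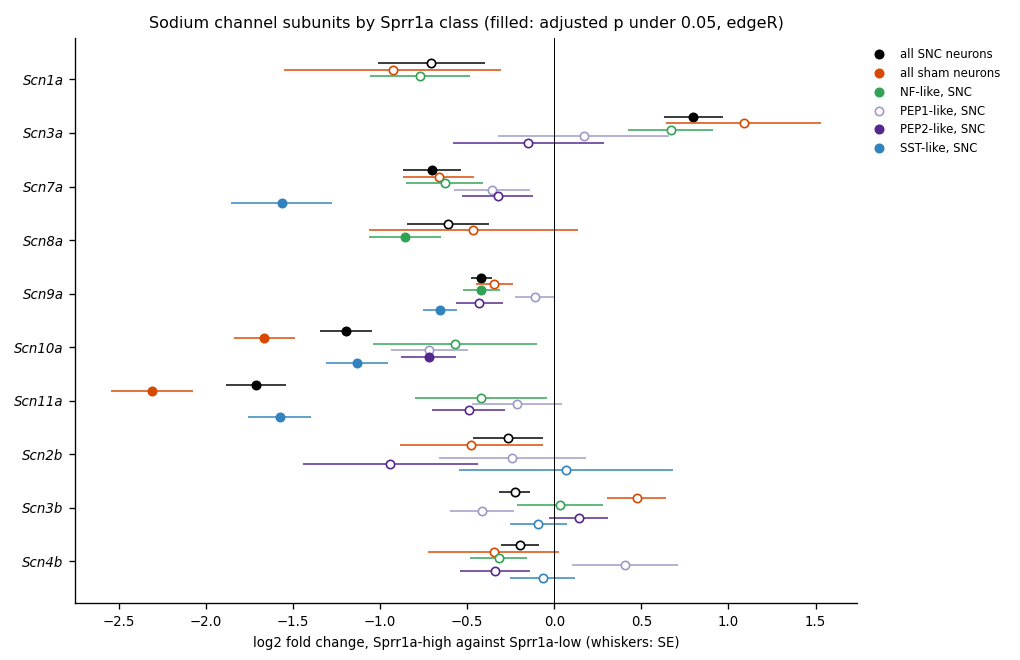
Log2 fold change of each sodium channel gene in Sprr1a-high against Sprr1a-low neurons (points, whiskers ± SE) in all SNC neurons, all labelled sham neurons and 4 classes of SNC neurons, filled where the edgeR adjusted p is under 0.05. Scn10a lies below 0 in all 6 comparisons and is filled in 4 of them.

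The labelled sham neurons showed the Scn10a and Scn11a difference too. In the 4 sham samples (78 against 137 cells, 1.99% of genes called) Scn10a was 46.4 ± 12.2 in high and 158 ± 60.2 CPM in low neurons (−1.66 ± 0.17) and Scn11a 30.2 ± 2.04 and 165 ± 66.7 CPM (−2.31 ± 0.24), both lower in 4 of 4 samples (edgeR adjusted p = 0.0082). No other member passed. Without Xin both were called again (−1.81 and −2.54, edgeR adjusted p = 0.0039 and 0.0030), and Scn3a passed as well, higher in high neurons (1.599, 0.017). A test of the difference between SNC and sham, which was 0.49 ± 0.29 for Scn10a, called 0 of 10 members and 0% of 11899 genes. Before adjustment 1 member fell under 0.05, Scn3b (−0.70 ± 0.20, edgeR adjusted p = 0.87), beside 585 of all 11899 genes. DESeq2 was not run for this test.

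Finer steps of Sprr1a over all labelled cells placed most of the drop of Scn10a and Scn11a low on the scale. Neuron type was not held fixed in these steps or in the correlations below. The clusters with the most Scn10a and Scn11a held few Sprr1a-high cells, so the steps also differ in neuron type. Over the samples with at least 3 cells in a step, whose number differed between steps, Scn10a averaged 211 ± 69.2 CPM in the 341 labelled cells under 20 CPM of Sprr1a, 100.5 ± 46.4 in 176 cells from 20 to 100, 74.6 ± 33.3 in 339 cells from 100 to 500 and 63.2 ± 44.0 in 74 cells of 500 or more. Scn11a went from 204 through 72.7 and 44.4 to 48.7 CPM over the same steps. Scn9a and Scn7a were lower at each step, Scn9a from 503 through 445 and 356 to 325 CPM and Scn7a from 180 through 150 and 111 to 60.8 CPM, and Scn3a went from 10.1 through 19.7 to 23.8 and 23.6 CPM. The Spearman correlation with Sprr1a over the cells of a sample, a description in sparse counts, had a median over 16 samples of −0.40 for Scn10a, −0.45 for Scn11a, −0.44 for Scn9a and −0.39 for Scn7a, each below 0 in 16 of 16 samples, and of 0.26 for Scn3a, which was below 0 in 3.

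Of the genes around the members, 1 of 3 other sodium channel genes tested was called in that comparison, the leak channel Nalcn (−0.30, edgeR adjusted p = 0.038), whereas Scn2a, Nav1.2 (−0.05), did not pass. Of 13 partner genes tested 2 were higher, Cntn1 and S100a10, the annexin partner that helps carry Nav1.8 to the membrane, and 4 lower, Fgf12, Fgf13 (−0.32, adjusted p = 0.0042), Kif5b and Nedd4l, a ubiquitin ligase of sodium channels. Ank3, the ankyrin that anchors channels at the initial segment, did not pass (−0.02). All 7 injury genes tested were higher, Sprr1a among them by construction.

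The added sham libraries had far more of 3 members than the labelled sham samples. Scn10a ran from 269 to 555 CPM (median 384, n = 7) against 57.5 to 187 CPM, Scn11a from 165 to 628 CPM (median 382) against 39.2 to 148 CPM, and Scn4b from 209 to 429 CPM (median 247) against 68.7 to 123 CPM. For these 3 genes every added sham sample lay above every labelled sham sample, and for no other member did the groups separate in that direction. The share of all genes that separate in this way was not counted. In the edgeR fit 47.6% of 15954 genes and 4 of 10 members were called: Scn10a (1.63 ± 0.30, adjusted p = 0.00013), Scn11a (1.67 ± 0.39, 0.0012), Scn4b (1.35 ± 0.23, 6.4e-05) and Scn2b, which was lower (−0.92 ± 0.33, 0.027). By direction, 23.7% of all genes were higher and 23.9% lower. Without Xin, Scn10a and Scn11a were 1.43 and 1.41 apart and still called.

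The member share was close to that of all genes, and the labelled and added cells differ in library set, labelling and mix of neuron types, which cannot be told apart here. All 7 injury genes tested were lower in added sham samples, and 2 of 8 glial genes were (Ncam1 and Pmp22). Set against only those labelled sham cells with under 20 CPM of Sprr1a, Scn11a no longer passed (0.90, edgeR adjusted p = 0.063). In that fit 3 members were called, beside 6363 of all 15909 genes. Scn2b, at 25 to 299 UMIs per sample, lost its call in 6 of 11 fits that left out a sample and in the fit of the 2 groups alone (adjusted p = 0.073). Within the group, Scn10a was 552, 555 and 340 CPM in the libraries labelled day 0, 384 and 374 CPM at day 1, 269 CPM at day 3 and 394 CPM at day 7, with too few libraries per day for a test.

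The comparison was repeated within classes of the same name, which need not hold like cells, and in which Xin had too few cells to enter. The labelled NP-like cluster was led by Mrgprb4, Chrna3 and Cldn3 and the added one by Lmx1a, Iapp and Crh, while Mrgprb4 was among the leading genes of an unnamed added cluster. In NP-like cells (3 labelled and 7 added samples, 37.8% of genes called) 6 members were called: Scn4b was 62.7 ± 28.5 against 320 ± 30.5 CPM in added sham (2.29 ± 0.23), Scn3a 6.99 ± 2.88 against 28.3 ± 14.4 CPM (1.91 ± 0.45), Scn3b 125 ± 24.2 against 285 ± 28.9 CPM (1.16 ± 0.17), Scn10a 326 ± 67.8 against 635 ± 54.8 CPM (0.94 ± 0.17) and Scn11a 476 ± 66.0 against 708 ± 34.2 CPM (0.56 ± 0.15), and Scn8a was lower (−2.75 ± 0.74), at 23.8 ± 14.7 against 3.47 ± 3.37 CPM.

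In SST-like cells (31.8% called, 18.6% higher) 4 of 9 members tested were higher in added sham, Scn10a (1.44 ± 0.23), Scn11a (1.44 ± 0.21), Scn4b (1.12 ± 0.29) and Scn9a (0.60 ± 0.18). In NF-like cells (33.1% called) 2 of 9 were, Scn11a (1.57 ± 0.49) and Scn4b (1.07 ± 0.17), and Scn10a was 73.7 ± 21.5 in labelled and 75.9 ± 18.4 CPM in added sham (−0.03, 95% interval −0.51 to 0.46). The labelled SST-like cells join cluster 5, with 144 ± 37.3 CPM of Scn10a and 113 ± 25.8 CPM of Scn11a, and cluster 7, with more of both, whereas the added ones are 1 cluster. The labelled NF-like cells likewise join clusters 3 and 4, whose Scn10a differs, and the added ones are 1 cluster. Whether these class differences differ from each other was not tested. Over all cells Scn2a was higher (0.53, edgeR adjusted p = 0.036), Fgf13 (−0.12) did not pass, and of 15 partner genes 5 were higher (Ank3 by 0.48, Fgf12, Nedd4l, Nfasc and Sptbn4) and 3 lower, Dpysl2 and S100a10 among them.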

How the data were processed

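UMI counts per gene and cell, as deposited by the authors, were the only values used. Per the study's methods and the submitters' processing notes, reads were aligned with STAR to Rnor_6.0, assigned with featureCounts and collapsed with UMI-tools. Cells with at least 500 genes, 1000 UMIs and under 5% mitochondrial counts were kept. Libraries S-2 and S-3, listed as separate samples of 1 group, were joined as sample S because their names share a letter; that they come from 1 ganglion sample is inferred. Labelled and added cells were clustered separately (Seurat 5.3.0, 2000 variable genes without Scn genes, 40 components, resolution 0.5). A marker counted for a cluster if its mean was at least 1.5 times that of the other cells of the set and at least 25% of the cluster's cells held it. The cluster was named for the type with the largest share of its markers counted, if these were at least 3. Clusters led by glial markers or by a tie stayed unnamed. No doublet caller was run on these hand-picked cells.

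Counts were summed per DRG sample and tested with edgeR 4.0.16 (R 4.3.3; TMM, filterByExpr, quasi-likelihood, Benjamini-Hochberg over all genes, limit 0.05), with all groups in 1 fit. DESeq2 1.42.0, other filters, scalings, thinning to 20000 UMIs, a term for the year of reverse transcription and left-out samples were alternatives. Thinned fits left out cells under 20000 UMIs and set the Sprr1a classes from the thinned counts, so class membership changed along with depth. Samples are labelled as separate samples, and where nothing says that they come from separate rats (17-1 and 17-2, 19-1 and 19-2) p-values measure only the spread between samples. Sprr1a-high and Sprr1a-low sums of 1 sample are paired by that sample. Depth was 4002564 to 28976434 UMIs per labelled and 14004381 to 40733436 per added sample, and intervals and limits cover counting error only. Members were named in every comparison, other channel and partner genes where called (and Scn2a, Fgf13 and Ank3 in any case), and for likeness the nearest genes per member. Some genes that these rules select are not reported here. Of 22 listed channel and partner genes 20 were in the tables. The members and lists were chosen with earlier results of these data known. Fits were tested on simulated data.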

Additional observations from a re-analysis of the deposited data

Results flagged for a closer look

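Among 40 combinations of a member with labelled sham, SNC 1 d, SNC 7 d or added sham, which have 4 to 7 samples each, 4 had a sample that stood apart from the rest of its group by Dixon's test. Chance flags about 1 in 20 such groups. In labelled sham, Scn11a was 39.2 CPM in the library Xin, against 130 CPM in the next sample. At SNC 1 d, Scn1a was 99.9 CPM in sample 17-2, against 61.9 CPM in the next. At SNC 7 d sample 19-2 was the highest for both resistant channels, with 203 CPM of Scn10a (next 101.7 CPM) and 175 CPM of Scn11a (next 75.1 CPM).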

How the results depend on the processing

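Under all alternatives run no called member value changed sign. Of 2538 member values recomputed, 2472 stayed on their side of the threshold, 31 lost a call and 35 gained one. Without the filter on low counts 6 members were called within neuron classes (0 with it), 8 in the Sprr1a comparison over all neurons (5 with it) and 13 within classes (7 with it). Of all genes those fits called 0% to 0.973% by class and time, 13.0% over all neurons and 0.519% to 6.78% within classes. With S-2 and S-3 kept apart, chosen after seeing the data, 0 members and 0% of genes were called at each SNC time. With Sprr1a-high set at 500 CPM, 2 of 4 comparisons within classes could be run, PEP1-like and PEP2-like. There 0 members were called, beside 0.0111% and 0.292% of genes, and the call lost was Scn10a in PEP2-like neurons. The SST-like and NF-like calls could not be examined at that limit. Over all neurons, where 17.1% of genes were called, Scn3a, Scn9a and Scn11a lost their calls while Scn1a (−3.47), Scn8a (−1.81) and Scn4b (−1.08) gained one. Put in place of the NF-like class, cluster 3 or cluster 4 left 0 members called there. The sham samples in place of the SNC samples gave 2, and NF-like cells alone gave 2 in the added sham comparison (4 over all cells). The causes were not tested.

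Leaving out 1 sample gave 0 to 0 members for each SNC time and within classes, 5 to 6 for Sprr1a, 4 to 8 for Sprr1a within classes (4 without sample 15) and 3 to 4 for added sham. Of all genes those fits called at most 1 at an SNC time, at most 3 within a class, 2716 to 3522 for Sprr1a and 6479 to 7566 for added sham. The Sprr1a fits within classes called 276 to 514 genes in NF-like, 452 to 828 in SST-like, 49 to 85 in PEP2-like and 6 to 36 in PEP1-like neurons. Without the pairing by sample as a block, 5 members were called for Sprr1a over all neurons, beside 1915 genes in place of 3297. Within classes 5 members were called (7 with the block), beside 0.0113% (PEP1-like) to 5.14% (SST-like) of genes. The count of genes over all neurons was 1933 at the 500 CPM limit and 1489 after thinning. The highest class or cluster was the same for 10 members with Scn genes kept, for 10 at resolution 0.8 and for 9 after thinning. Depth limits Scn1a, Scn2b, Scn3a and Scn8a most, at 9, 25, 66 and 21 UMIs in their lowest samples.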

Other observations

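SNC 7 d samples 19-1 and 19-2 differ by label in their picked neurons, and the labels do not say whether they come from 1 rat: 20 of 24 cells of 19-1 and 4 of 24 cells of 19-2 were given as directly injured. The paper's Results and Methods assign the dyes to crushed and spared branches in opposite ways. Which of these samples held mostly injured neurons is therefore uncertain. Values stand side by side with no test, with 95% Poisson intervals that cover counting error only. Scn1a was 140 CPM (132 to 147) in 19-1 and 3.04 CPM (2.04 to 4.37) in 19-2, Scn8a was 23.4 and 3.36 CPM, Scn4b 155 and 86.9 CPM and Scn7a 111 and 82.7 CPM. The other 6 members were lower in 19-1, among them Scn10a at 101.7 against 203 CPM, Scn11a at 56.4 against 175 CPM and Scn3b at 93.6 against 184 CPM. Sprr1a reached 100 CPM in 5 cells of 19-1 and 14 cells of 19-2.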
